A study of Schizosaccharomyces pombe with 2 samples.

Results

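The interval described here is a stretch of chromosome 2 of fission yeast (Schizosaccharomyces pombe) that carries the working name of centromere interval. Its members are all non-control probes on chromosome 2 whose start and end lie between 1590011 and 1659970 in array positions, on either strand, and they number 1378 of the 43993 probes of each array (688 on the plus and 690 on the minus strand). They were chosen by position alone. For comparison by place, the interval was divided into an inner 30 kb (578 probes, from 1610011 to 1639970), an edge of 10 kb on each side (398 probes in both) and a flank of 10 kb beyond each edge (398 probes in both). The other 4 probes lie across a limit between them.

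RNA of 2 mutants was set against wild-type RNA on 2-colour Agilent tiling arrays, 1 array for asf1-1 and 1 for the deletion of hip1. Cells of the latter are called hip1-deleted below. The mutant was labelled with Cy5 (red) and wild type with Cy3 (green) on both arrays, so there is neither a replicate nor a dye swap, no p-value is given, and any dye bias runs the same way on both. All RNA came from cultures growing logarithmically in rich medium (YEA) at 30 °C, and the labels name no allele other than these. The study's title places the arrays in work on Asf1 and HIRA at heterochromatic loci.

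A fission yeast centromere has a central core, where the histone H3 variant Cnp1 (CENP-A) replaces much of H3 and the kinetochore assembles, and on each side inverted repeats packed in heterochromatin. The outer repeats, called dg and dh, are transcribed from both strands, and RNA interference turns their transcripts into small RNAs that help to place methylated H3K9 and the HP1 protein Swi6. Asf1 is a chaperone that hands H3-H4 to other assembly factors, among them the HIRA complex, of which Hip1 is a subunit.

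Probes are 60 bases long, lie every 50 bp and alternate between strands, so that each strand has a probe every 100 bp. No probe lies between 1617471 and 1618510, a gap of 1040 bp. The build behind the positions is not given and the files name no genes, so places are given by position and strand. The strand is that given for the probe, and whether it is the strand of the RNA or of the cDNA is not given. A RefSeq gene table (ASM294v3), used for gene order only, lists 27 tRNA genes, 45 long non-coding RNA genes and 2 other non-coding RNA genes between rpb1, the gene of the largest subunit of RNA polymerase II, and yox1. How these genes lie against the probes was not analysed here. Nor were probe sequences, so the name of the interval was not checked by sequence, and signal from similar repeats elsewhere in the genome was not tested.

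Over all probes, 79.6% were well above background in wild type on the asf1-1 array and 78.9% on that of hip1-deleted cells, against 93.9% in asf1-1 and 88.8% in hip1-deleted cells. In the interval 59.5% of probes were above background in wild type on both arrays. Of the 1378 probes, 16 were outlier spots, and 1085 of the rest, detected in 1 or more of the 4 channels, were used for ratios. Detection here means that the scanner software called the spot well above its background.

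Wild type left only the middle of the inner 30 kb without detected RNA. Over the inner 30 kb as a whole, 50.0% of plus-strand and 45.8% of minus-strand probes were detected in wild type on both arrays, against 67.2% and 68.8% in the edges and 75.4% and 60.6% in the flanks. The inner 30 kb as fixed by position was therefore not silent throughout. Bins of 1 kb in which under 50% of the probes of each strand were detected in wild type formed 1 run of 11 bins, from 1621011 to 1631970, which is called the silent core below. It was chosen from wild-type detection and is a description, not a test. In the core 7.62% of plus-strand and 6.36% of minus-strand probes were detected in wild type on both arrays.

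Such runs were rare in the long tiled block of chromosome 2 that holds the interval. In this block, which runs from 1000011 to 3049820 and holds the tiling gap given above, 41 of 2050 bins (2.00%) were silent by this measure on both strands. Of these, 17 were among the 70 bins of the interval, and no run outside the interval was longer than 2 bins. A run of 4 silent bins lay at the outer end of the right edge, where single windows had between 0% and 40.0% of their probes detected. The left edge had no such run. At the right limit of the core, the last minus-strand and plus-strand windows inside, at 1631011 and 1631061, had 20.0% and 40.0% of their probes detected in wild type, and those just outside, at 1632011 and 1632061, had 20.0% and 80%. At the left limit, the windows inside, at 1621011 and 1621061, had 10% and 0%, and those outside, at 1620011 and 1620061, had 60.0% and 40.0%. In the first windows to the right of the core, detection rose on the plus strand only.

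Most of the core stayed near background in both mutants. On the asf1-1 array 8.84% of core probes were detected in wild type and 15.3% in asf1-1. On the other array the shares were 8.84% in wild type and 13.5% in hip1-deleted cells. Of 196 core probes not detected in wild type, 17 (8.67%) were detected in asf1-1, whereas over the whole array 71.0% of 8969 such probes were. In the hip1 deletion 15 of 196 (7.65%) were detected, against 50.2% of 9239. Since the core was chosen for low wild-type detection, the wild-type shares follow from that choice. The mutants' detection was not used for it, but is not independent of it. By that choice, undetected core probes lie in bins with few detected probes, and those of the whole array need not. The shares of core and array therefore compare unlike probes, and the gap between them is a description.

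Brightness gave the same picture. The median core spot read 50.0 intensity units in wild type and 75.5 in asf1-1, beside 43 and 66 for the 507 negative control spots of that array. On the other array it read 43 in wild type and 64 in hip1-deleted cells, beside 40 and 60 for the controls. Of the negative controls, 2.96% were called above background in the asf1-1 channel and 1.97% in the hip1-deleted channel. In the wild-type channels of these arrays 2.17% and 0.789% were. Core probes were thus called more often than controls in each channel. The last bin of the core had more detected probes. On the minus strand at 1631011, 70% were detected in asf1-1 and 60% in hip1-deleted cells, and on the plus strand at 1631061, 80% and 70%. Of the 22 core windows, 5 held the 3 usable probes that a ratio needs. With most core probes undetected in both channels, no fold change is given for the core as a whole.

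On either side of the core lie stretches with detected RNA on both strands, called the left arm (1603011 to 1620970) and the right arm (1632011 to 1644970) here. These limits were set after the data had been seen. In the left arm 78.6% of plus-strand and 78.0% of minus-strand probes were detected in wild type on both arrays. In the right arm the shares were 86.0% and 75.2%.

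As medians over probes, the ratios of the inner 30 kb and the edges were slightly below 0 in both mutants. Ratios are log2 of mutant over wild type after loess normalization within the array. The inner 30 kb had a median of -0.19 on the plus and -0.26 on the minus strand in asf1-1, and of -0.14 and -0.23 in hip1-deleted cells. The edges had -0.56 and -0.58 in asf1-1 and -0.25 and -0.15 in hip1-deleted cells. These directions are not settled, because median centring of the arrays in place of loess turned all 8 medians positive. They became 0.32 and 0.29 for the inner 30 kb and 0.051 and 0.11 for the edges in asf1-1, and 0.16, 0.18, 0.22 and 0.26 in hip1-deleted cells. The interval as a whole shifted by 0.36 in asf1-1 and 0.28 in hip1-deleted cells between these normalizations, while the median over all windows of the array shifted by under 0.1.

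The 2 strands of an edge differed. On the left edge the plus strand had a median of -0.90 in asf1-1 and the minus strand -0.28. On the right edge it was the minus strand that was lower, with -0.88, against -0.14 on the plus strand. In the hip1 deletion the 4 medians, in the same order, were -0.40, -0.04, -0.25 and -0.07. The lower strand was the plus strand on the left edge and the minus strand on the right edge, as it was with median centring in each mutant. The SD over probes was between 0.54 and 1.02 in these 8 groups, larger than most of the differences.

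The left flank showed opposite ratios on its strands, with -0.24 on the plus and 0.58 on the minus strand in asf1-1, and -0.34 and 0.41 in hip1-deleted cells. In the right flank the medians stayed between -0.00 and 0.17 in both mutants. In the left flank the plus-strand window at 1593061 had a ratio of -1.38 ± 0.21 in asf1-1 and -1.17 ± 0.20 in hip1-deleted cells (SD over 8 probes), with every probe detected in wild type. On the minus strand, the window at 1592011 had 1.15 ± 0.37 and 0.84 ± 0.27 (10 probes), and 30.0% of its probes were detected in wild type on both arrays. The right flank had high ratios in its first windows next to the edge, both on the minus strand with all probes detected in wild type. At 1651011 the ratio was 1.13 ± 0.90 in asf1-1 and 0.59 ± 0.40 in hip1-deleted cells, and at 1650011 it was 0.76 ± 0.64 and 0.89 ± 0.30, the latter the highest flank value in hip1-deleted cells.

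Windows of 1 kb on 1 strand with at least 3 usable probes give a finer view. In the interval 123 of 140 windows were measured, and all 17 that were not lie in the core. In asf1-1, 7 windows were at least 2-fold higher (5.69%; 13.6% of all 4380 windows of the array) and 20 at least 2-fold lower (16.3%; 7.42% of all). In the hip1 deletion 4 were higher (3.25%; 12.7% of all) and 7 lower (5.69%; 3.61% of all). Relative to the whole array the interval thus held fewer raised and more lowered windows in both mutants. The split is not settled either, because with median centring asf1-1 had 19 higher and 10 lower and the hip1 deletion 10 higher and 4 lower. No shares over the whole array are given for median centring, so these counts do not show how the interval then compared with the array. Under all of 6 other settings of the processing, 4 of the 7 higher and 3 of the 20 lower windows in asf1-1 stayed past 2-fold. In the hip1 deletion 1 of the 4 higher and 1 of the 7 lower did.

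By place, the edges held 9 of the 20 windows lower in asf1-1 and none higher, and in hip1-deleted cells no edge window passed 2-fold either way. The 8 lower windows inside the inner 30 kb in asf1-1 lay on both strands, 4 on each. All 4 windows raised in hip1-deleted cells and 6 of the 7 lowered were in the inner 30 kb. By arm, the left held 1 window higher and 10 lower in asf1-1 and the right 3 and 7, and in hip1-deleted cells the left held 2 and 4 and the right 2 and 2. Windows past 2-fold in both mutants numbered 3 higher and 5 lower in the interval. No share over the whole array is set beside these counts, so they do not show whether shared windows were many or few. The arrays may share their wild-type RNA, which the sources used here do not say, so the mutants' values are given side by side and no overlap between them is tested.

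Along the arms the lowered windows stood in rows. On the plus strand of the left edge, the 7 windows from 1603061 to 1609061 all had ratios below 0 in asf1-1, at -1.41, -1.04, -1.24, -2.33, -1.22, -0.90 and -0.79. Hip1-deleted cells had -0.85, -0.79, -0.41, -0.60, -0.07, -0.05 and -0.34 there. Every one of these ratios was the higher of the pair in hip1-deleted cells, but this order depended on the wild-type channel. With each mutant set against the wild type of the other array, the plus strand of the left edge had medians of -0.70 in asf1-1 and -0.65 in hip1-deleted cells. The order then turned at 1606061 (-1.19 and -1.69) and stayed at 1603061 (-1.36 and -0.96). On the minus strand of the right edge, the 6 windows from 1640011 to 1645011 had -0.70, -0.94, -1.14, -1.67, -2.40 and -0.99 in asf1-1, against -0.42, -0.56, 0.20, -0.26, -0.63 and -0.76 in hip1-deleted cells. On the strands opposite to these rows, asf1-1 had -1.67 at 1604011 on the minus strand, but the windows at 1605011 to 1609011 on that strand lay between -0.58 and 0.26, and windows at 1640061 to 1645061 on the plus strand between -0.73 and 0.37. In the silent bins of the outer right edge, from 1646011 to 1649061, the ratios of asf1-1 ran from -0.17 to 0.44 and those of hip1-deleted cells from -0.20 to 0.13, on few detected probes.

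The highest window of the interval in both mutants was on the minus strand from 1612011 to 1612970, in the left arm. Its median log2 signal was 10.93 in wild type and 12.55 in asf1-1 on one array, and 10.04 in wild type and 11.88 in hip1-deleted cells on the other. Both mutant channels were above both wild-type channels. The ratio was 1.77 ± 0.46 in asf1-1 (3.41-fold) and 1.95 ± 0.22 in hip1-deleted cells (3.85-fold; SD over 10 probes), and it stayed past 2-fold in both mutants under 6 other settings of the processing. No other window of the interval did so in both.

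In the right arm the plus strand led. The window from 1637061 to 1638020 had a ratio of 1.14 ± 0.65 in asf1-1 and 1.60 ± 0.51 in hip1-deleted cells, and the next, from 1638061, had 1.12 ± 1.05 and 1.52 ± 0.67 (10 probes each). In both, all probes were detected in wild type. Log2 signals of the first were 10.82 in wild type against 11.98 in asf1-1, and 9.88 in wild type against 11.58 in hip1-deleted cells. The wild-type channel of the asf1-1 array was the brighter of the 2 by 0.92, a difference of the same order as the ratio in asf1-1. With the wild-type channels crossed, so that each mutant was set against the wild type of the other array, the ratio became 1.99 in asf1-1 and 0.72 in hip1-deleted cells.

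Some raised windows had a large ratio in 1 mutant. The minus-strand window at 1611011, next to the highest one, had -0.05 ± 0.55 in asf1-1 and 1.08 ± 0.34 in hip1-deleted cells. Across the core, the plus-strand window at 1639061 had -0.25 ± 0.39 and 0.97 ± 0.51. With crossed wild-type channels neither window differed much between the mutants, at 0.59 and 0.54 for the first and 0.44 and 0.32 for the other. Crossing reverses the gap between the wild-type channels without removing it. The mutant channels themselves, asf1-1 minus hip1-deleted cells, were apart by -0.42 and -0.53. Conversely, the plus-strand window at 1635061 had 1.18 ± 1.54 in asf1-1 and 0.07 ± 0.64 in hip1-deleted cells, with 50.0% of its probes detected in wild type on both arrays. Its SD in asf1-1 exceeded its ratio, though 80% of its 10 probes were above 0. In asf1-1 it stayed past 2-fold under all 6 other settings of the processing, between 1.34 and 1.93.

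In asf1-1 the lowest windows lay in the outer parts of both arms. On the minus strand from 1644011 to 1644970 the log2 signal was 10.75 in wild type and 8.44 in asf1-1, and on the other array 10.25 in wild type and 8.88 in hip1-deleted cells. The ratios were -2.40 ± 0.44 in asf1-1 (5.27-fold lower) and -0.63 ± 0.77 in hip1-deleted cells. On the plus strand from 1606061 to 1607020 the signal was 10.35 in wild type and 8.03 in asf1-1, and 9.30 in wild type and 8.56 in hip1-deleted cells. Here the ratios were -2.33 ± 0.32 (5.04-fold lower) and -0.60 ± 0.20. In asf1-1 both windows stayed at least 2-fold lower under all 6 other settings, between -2.71 and -1.31 for the first and between -2.50 and -1.19 for the second.

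Nearer the core, asf1-1 was lower on the plus strand at 1611061, with -1.84 ± 0.41, and on the minus strand at 1639011, with -1.89 ± 0.26. Hip1-deleted cells had -0.29 ± 0.53 and -1.17 ± 0.50 there. Further windows lower in asf1-1 were at 1643011 on the minus strand (-1.67 ± 0.67), 1604011 on the minus strand (-1.67 ± 0.46) and 1603061 on the plus strand (-1.41 ± 0.69). With median centring the asf1-1 ratios became -0.78 at 1611061, 1639011 and 1604011, -0.98 at 1643011 and -0.39 at 1603061, so none stayed 2-fold lower. Median centring brought the plus-strand window at 1633061, with -1.06 ± 0.44 in asf1-1, to 0.041.

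Next to the core, hip1-deleted cells had its lowest windows. At 1619011 on the minus strand the ratio was -1.69 ± 0.34 in hip1-deleted cells and -1.25 ± 0.53 in asf1-1. On the plus strand at 1632061 it was -1.56 ± 0.35 and -1.29 ± 0.56. They lie on either side of the core, on exchanged strands. The minus-strand window at 1617011, beside the gap in the tiling, had -1.30 ± 0.50 in hip1-deleted cells and -0.45 ± 0.61 in asf1-1 (5 probes).

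The windows on the left and right of the core mirrored each other. When the right side was folded onto the left with strands exchanged, the wild-type signal, averaged over arrays, matched best at a centre of 1625300, with a Pearson correlation of 0.75 over 247 positions per strand. Each position is a running median of 5 probes, so neighbouring positions share probes, and positions share the array and its normalization. Since the centre was picked for this value, it is a description. The ratios were not used to pick the centre, although they hold the wild-type channel. Folded there, the ratio in asf1-1 had a correlation of 0.74 and the ratio in hip1-deleted cells 0.70. At centres more than 1000 bp away neither exceeded 0.33 and 0.35 respectively. Without the core, over 180 positions, the values were 0.76 and 0.75.

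Window by window the match was closest between 1606011 and 1619020, which folds onto 1631611 to 1644620. In 26 pairs of windows the median gap between the ratio and that of its mirror window was 0.14 in asf1-1 and 0.12 in hip1-deleted cells. In the same windows the SD over the probes of a mirror window had a median of 0.55 and 0.40. The gap was within 0.25 in 17 pairs in asf1-1 and in 21 in hip1-deleted cells, and over 0.5 in 2 pairs in each. In the 12 pairs farther out, from 1600011 to 1606020, the median gap was 0.43 and 0.39. The limit between the near and the outer pairs was set after seeing the values.

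The highest window was among these pairs. The minus strand at 1612011, with 1.77 in asf1-1 and 1.95 in hip1-deleted cells, folds onto the plus strand from 1637661 to 1638620, which had 1.71 ± 0.60 and 2.11 ± 0.45. The lowest left window of asf1-1, the plus strand at 1606061, had -2.33 in asf1-1 and -0.60 in hip1-deleted cells. It folds onto the minus strand from 1643611 to 1644570, with -2.07 ± 0.37 and -0.60 ± 0.23. The window raised in hip1-deleted cells, the minus strand at 1611011 with -0.05 and 1.08, folds onto the plus strand at 1638661, with -0.08 ± 0.56 and 1.05 ± 0.30. The highest window of both mutants and the low plus-strand window at 1606061 in asf1-1 thus had a mirror window of like ratio. The mirror of the lowest window of hip1-deleted cells lies inside the core.

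That window, the minus strand at 1619011, had -1.69 in hip1-deleted cells, whereas its mirror on the plus strand from 1630961 to 1631520, inside the core, had -0.36 ± 0.58 over 6 probes. The gap of 1.33 was the largest of all 40 pairs in that mutant, and in asf1-1 the pair had -1.25 and -0.64 ± 0.75. Few core probes were detected in wild type, so this gap cannot show whether the window lacks a mirror of like ratio. This pair and that of the plus strand at 1619061, which fold into the core, are in neither the near nor the outer pairs. Over all 40 pairs the median gap was 0.24 in asf1-1 and 0.15 in hip1-deleted cells. Among the near pairs a few parted as well. At 1611061 on the plus strand hip1-deleted cells had -0.29, and its mirror window on the minus strand from 1638711 to 1639570 had -0.90 ± 0.66, whereas in asf1-1 the values were -1.84 and -1.85. On the minus strand at 1618511, in 4 probes beside the tiling gap, asf1-1 had -0.43 and its mirror -1.22 ± 0.70. Whether the arms share sequence was not analysed here, and RNA of any sequence they share cannot be told apart by arm on these arrays.

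The ratios of the mutants differed most in the arms, and these differences changed with the wild-type channel used. In 9 of 123 windows the ratio in asf1-1 was at least 2-fold below that in hip1-deleted cells (0.959% of all windows of the array), and in none was it 2-fold above (1.26% of all). The lowest differences, asf1-1 minus hip1-deleted cells, were -1.62 on the minus strand at 1644011, -1.59 on the plus strand at 1606061, -1.33 on the minus strand at 1642011 and -1.30 on the plus strand at 1611061. With crossed wild-type channels these became 0.16, 0.37, -0.07 and -1.003, and the counts became 1 window below and 10 above. No share over all windows is given for the crossed counts. Among these 9, the window at 1611061 alone passed 2-fold in the same direction both ways. Crossing turns the sign of the gap between the wild-type channels and does not remove it. The mutant channels themselves, asf1-1 minus hip1-deleted cells, were apart by -0.73, -0.58, -0.70 and -1.15 in the 4 windows, so asf1-1 was the dimmer in each. The highest differences were 0.88 on the minus strand at 1634011, 0.84 on the plus strand at 1616061, 0.77 on the plus strand at 1614061 and 0.76 on the minus strand at 1614011, and they became 1.35, 1.45, 0.77 and 1.04 with crossed channels. These 4 windows, between the leading windows and the core, stayed above 0 both ways.

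The wild-type channels themselves stood apart in the interval. In 15 of 123 windows they differed by at least 1.5-fold between the arrays (2.26% of all windows of the array), and in all 15 the wild type of the asf1-1 array was the brighter. The SD of this difference was 0.33 in the interval and 0.22 over all windows. They included windows that led in either direction, such as 1612011 on the minus strand (0.84), 1637061 on the plus strand (0.92) and 1644011 on the minus strand (0.98). At 1606061 on the plus strand, wild type read 10.35 on the asf1-1 array and 9.30 on the other, while the mutants read 8.03 and 8.56. Whether the 2 wild-type extracts, or the labelling of 1 of them, differed was not tested.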

How the data were processed

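Total RNA was depleted of ribosomal RNA and labelled as cDNA after reverse transcription, per the labels' protocols. Per the file headers, the authors read spots with Feature Extraction 10.1.1.1 of Agilent. The authors deposited median intensity values of spots and surrounding background without normalization, and their deposited log10 ratio, of red over green, is background-subtracted and dye-normalized. The deposited p-value describes 1 spot. The authors' series table holds log2 values that matched this log ratio set to 0 where its p-value was above 0.05.

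For background, normexp with an offset of 50 was applied to the median intensities (limma 3.58.1, R 4.3.3). Loess then normalized every array by itself, and gave weight 0 to 1227 control spots and to the outlier spots of that array. The 850 probes that were outliers on either array were left out of the summaries. Both normalizations set the middle of each array near 0, so an overall change of RNA is removed. The raw median log2 ratios were 0.86 (asf1-1) and 0.15 (hip1 deletion). Single channels were made comparable by quantile normalization of the mean log2 intensity between arrays. A probe was used when detected in 1 or more of the 4 channels. Windows of 1 kb were the median over at least 3 probes of 1 strand, and their SD covers differences between probes only. The number of arrays, 1 per mutant, limits the precision, and no spot in the interval was saturated.

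Windows eligible to be named were the 8 highest and 8 lowest per array with at least 5 probes and 80% of them on the side of the median, the 4 with the largest difference between mutants each way, and the ends of the silent stretch. Mirror windows and other windows named were chosen after their values were seen. The interval, its parts and the rules were chosen with earlier results of these data known. Probes of hip1 could not be placed to check the labels. The window summary recovered most planted changes, all larger than 2-fold, in simulated data. That check used only probes detected in wild type, so it does not cover dim probes or the choice of normalization. Python 3.11.15 with pandas 2.3.3 and numpy 2.4.6 made the tables. Alternatives tried were median centring, the series table, the scanner log ratio, unsubtracted background, crossed wild-type channels, other filters, summaries, probe sets, limits and thresholds. Loess fitted on probes above background in all 4 channels and wild-type detection on each array alone were chosen after seeing the data.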

Additional observations from a re-analysis of the deposited data

Results flagged for a closer look

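The 2 windows flagged here had ratios above 0 in asf1-1 and below 0 in hip1-deleted cells. The difference was not tested, since each mutant has 1 array. Other windows had ratios of opposite sign as well, such as the minus strand at 1642011, with -1.14 in asf1-1 and 0.20 in hip1-deleted cells. On the plus strand at 1616061 the ratio was 0.47 ± 0.64 in asf1-1 and -0.55 ± 0.42 in hip1-deleted cells, with a median difference over probes of 0.84. For the minus strand at 1634011 the ratios were 0.59 ± 0.66 and -0.42 ± 0.31, with a median difference of 0.88. With crossed wild-type channels the differences became 1.45 and 1.35. The windows lie at mirrored places: the first folds onto the minus strand from 1633611 to 1634570, with 0.37 ± 0.52 and -0.42 ± 0.31. With median centring the asf1-1 ratios were 1.62 and 1.63, and those of the hip1 deletion 0.03 and -0.04. Of their probes, 70% and 60% were detected in wild type on both arrays.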

How the results depend on the processing

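No paired analysis was possible because the labels give no replicate numbers and no mutant has more than 1 array. Of the medians, counts and detection shares recomputed, 187 stayed within the limits set (0.25 on the log2 scale, 1.5 times for counts, the counting interval for shares), and 53 did not. Medians below are in the order plus, minus strand. Median centring gave in asf1-1 0.32 and 0.29 for the inner 30 kb, 0.051 and 0.11 for the edges and -0.39 for the plus-strand flanks, with 19 windows higher and 10 lower. It gave in hip1-deleted cells 0.16 and 0.18, then 0.22 and 0.26, with 10 higher and 4 lower, and turned the plus-strand window at 1633061 to 0.041 in asf1-1. Loess on bright probes gave in asf1-1 0.15 and 0.17, then -0.29 and -0.13, and 0.50 for the minus-strand flanks, with 26 higher, and in hip1-deleted cells 0.14 for the inner minus strand, with 7 higher. It moved the median of all windows to 0.24 and 0.16. Crossed wild-type channels gave -0.26 and -0.26 for the asf1-1 edges, -0.45 for the hip1 deletion edges on the minus strand, and 2 higher and 16 lower for the hip1 deletion. The medians of asf1-1 minus the hip1 deletion turned from -0.12 and -0.22 to 0.16 and 0.16 in the inner 30 kb and from -0.25 and -0.29 to 0.28 and 0.14 in the edges. The scanner log ratio gave 18 higher in asf1-1 and 8 higher and 25 lower in hip1-deleted cells. The series table gave 0.0 for the inner minus strand in asf1-1 and for the plus-strand edges in hip1-deleted cells, with 14 higher in asf1-1 and 7 higher and 23 lower in hip1-deleted cells. At 1.5-fold asf1-1 had 16 windows higher and 38 lower and hip1-deleted cells 12 and 23, and in 2-kb windows at 2-fold 2 and 10, and 2 and 3. Even-numbered probes gave 3 higher in asf1-1. Edges of 5 kb gave -0.47 for the inner plus strand and -0.16 and -0.14 for the edges in asf1-1. Probes above background in all 4 channels gave -0.61 and -0.44 for the inner plus strand in asf1-1 and the hip1 deletion. On the asf1-1 array alone, wild-type detection on the minus strand of the flanks was 69.2%. Odd-numbered probes, the mean, no filter, at least 8 probes, no background subtraction and the inner part taken from wild-type detection stayed within the limits. For named windows, 277 values stayed within them and 118 moved beyond them, most under median centring (45) and crossed channels (32). A further 1, given above, was past 1 in size on the log2 scale and turned its sign. For smaller values a change of sign was not counted separately. The cause was not tested. Dim spots limit the ratios: 58.5% of the interval's probes were above background in all 4 channels.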
